A study of Mus musculus with 4 samples.

Results

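The Mmp genes described here encode 10 matrix metalloproteinases, named by symbol: Mmp13, Mmp2, Mmp3, Mmp8, Mmp9, Mmp10, Mmp11, Mmp14, Mmp16 and Mmp23. They were taken from the 22380 protein-coding genes of the mouse annotation, and every Runx2 peak that touched the body of one of them or the 50 kb on either side was assigned to it. Of the 25457 peaks listed at day 0, 28 fell in these windows, as did 61 of the 60596 of day 9 and 40 of the 40330 of day 28. They merged into 67 of 67703 regions when peaks of different days that shared at least 1 bp were joined. Runx2 occupancy had been measured by ChIP-Seq, in which protein-bound DNA is recovered with an antibody and sequenced. The cells were MC3T3-E1 subclone 4, a clonal preosteoblast line from mouse calvaria. They were taken while proliferating (day 0), while depositing matrix (day 9) and while mineralizing (day 28), the later stages under ascorbic acid and beta-glycerophosphate. Each day had 2 biological replicate libraries, which the authors pooled before peak calling, and all days shared input DNA from day 9 cells as the control. Each day is thus 1 list, so differences between days carry no replicate error and no test was made of them. The lists hold no expression values, so the cell type could not be checked against marker genes.

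Matrix metalloproteinases are zinc enzymes that cut proteins of the extracellular matrix. Collagenases open the fibrillar collagen triple helix, gelatinases digest the denatured chains, stromelysins act on proteoglycans and other matrix proteins, and membrane-type enzymes work at the cell surface and activate other members. Runx2 is the transcription factor required for osteoblast formation and binds a short core, TGTGGT. Collagenase 3, the product of Mmp13, is made by mature osteoblasts and hypertrophic chondrocytes, and its promoter is a classic target of Runx2 together with AP-1, the Fos and Jun dimer that binds TGANTCA.

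Mmp13 is on the plus strand of chromosome 9 at 7272514 to 7283333 (gene ENSMUSG00000050578, mm9, as for all positions here). Its window held 3 regions. They all lay upstream, with centres 19.0, 29.6 and 32.9 kb from the start site, and none was listed at day 0. The 200 bp around the centres of the day 9 peaks are shown because they are the Mmp13 sites themselves. They are given on the plus strand, with each TGTGGT or its reverse complement ACCACA in capitals, first at chr9:7253378-7253577, then at chr9:7242801-7243000, then at chr9:7239514-7239713.
Mmp13, 19.0 kb upstream: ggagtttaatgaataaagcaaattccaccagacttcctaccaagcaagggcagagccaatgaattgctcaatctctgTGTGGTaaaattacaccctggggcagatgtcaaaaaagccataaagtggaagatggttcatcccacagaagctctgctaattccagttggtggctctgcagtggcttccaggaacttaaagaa
Mmp13, 29.6 kb upstream: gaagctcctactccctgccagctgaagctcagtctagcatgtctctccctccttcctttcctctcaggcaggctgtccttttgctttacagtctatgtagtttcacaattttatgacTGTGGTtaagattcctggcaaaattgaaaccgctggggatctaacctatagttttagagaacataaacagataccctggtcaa
Mmp13, 32.9 kb upstream: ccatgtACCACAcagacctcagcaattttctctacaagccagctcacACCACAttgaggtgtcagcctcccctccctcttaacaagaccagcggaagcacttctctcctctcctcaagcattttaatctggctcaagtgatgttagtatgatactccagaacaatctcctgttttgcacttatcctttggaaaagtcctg

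Each of the 3 Mmp13 sequences held the core, against 37.3% of the 200 bp centres of all day 9 peaks. In the regions 19.0 and 29.6 kb upstream there was 1 copy, 20 bp from the day 9 centre. The region 32.9 kb upstream held 2 copies, the nearer of them 50 bp from the day 9 centre. No Mmp13 sequence held TGANTCA, which was present in 7.22% of the centres of all day 9 peaks.

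The promoter of Mmp13 is shown beside that of Mmp9, because both hold a Runx core and an AP-1 site while the lists differ over them. The sequences are the 250 bp before the start site, both on the plus strand, with either motif in capitals. The first is at chr9:7272264-7272513 and the second at chr2:164773469-164773718.
Mmp13 promoter: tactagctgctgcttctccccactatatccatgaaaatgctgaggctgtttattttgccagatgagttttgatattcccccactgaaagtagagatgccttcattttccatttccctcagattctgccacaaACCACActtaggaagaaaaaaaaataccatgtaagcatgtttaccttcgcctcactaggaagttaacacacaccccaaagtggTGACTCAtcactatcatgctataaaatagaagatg
Mmp9 promoter: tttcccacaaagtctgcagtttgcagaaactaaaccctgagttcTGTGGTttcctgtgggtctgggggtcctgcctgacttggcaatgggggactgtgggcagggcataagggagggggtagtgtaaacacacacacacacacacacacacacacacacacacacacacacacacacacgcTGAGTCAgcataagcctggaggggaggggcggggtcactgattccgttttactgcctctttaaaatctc

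In Mmp13 the core stood at positions -118 to -113 from the start site, written as ACCACA, and the AP-1 site, TGACTCA, at -35 to -29. In Mmp9 the core stood at -206 to -201 and the AP-1 site, TGAGTCA, at -69 to -63. From 250 bp before to 50 bp after the start, 0 peaks overlapped the Mmp13 promoter on any day, whereas the Mmp9 promoter overlapped 1 peak at day 9 and 1 at day 28. Of 22380 promoters of that length, 15.2% held TGTGGT, 6.78% held TGANTCA and 1.20% held both, each on either strand. Among the 269 promoters with both, 16.7% overlapped a day 0 peak, 21.9% a day 9 peak and 20.4% a day 28 peak. Over all promoters these shares were 39.0%, 46.6% and 46.1%. Among the 17729 promoters with neither motif they were 41.8%, 49.5% and 49.4%. To have no listed peak, as at Mmp13, was thus the more frequent case on each day with both motifs, but also over all promoters. The groups were not matched for base composition, and a motif match describes these letters and not a bound site.

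The 3 upstream regions of Mmp13 were of low to middle rank. The score of a peak is its MACS p-value as a negative log10, multiplied by 10, and since it depends on depth it is also given as its percentile within its own list, with ties at their middle rank. The region 32.9 kb upstream, at chr9:7239436-7239876, scored 250 at day 9 (percentile 47.9) and 252 at day 28 (percentile 40.8). The region 29.6 kb upstream, at chr9:7242680-7243121, scored 141 at day 9 (percentile 23.2) and 193 at day 28 (percentile 31.3). The region 19.0 kb upstream, at chr9:7253356-7253598, was listed at day 9 alone, with a score of 113 and a percentile of 9.7. The lowest score retained in any list was 100, so a region without a peak on a given day may still have been enriched below that limit. The 2 regions farther upstream, 2.80 kb apart, kept their places between days. The day 28 peaks covered all 313 and 387 bp of the respective day 9 peaks, and their centres moved by 43 and 0 bp. All 3 lay between genes, and the nearest start site was that of Mmp13.

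No peak was listed in the Mmp13 body, in the 1 kb before its start or in the 50 kb after its end. Beyond the window, the nearest upstream peaks were 87.8 kb away at day 9 and 87.9 kb away at day 28, with Dcun1d5 as the nearest gene start. At day 0 the nearest peaks were 817 kb upstream, by Ddi1, and 491 kb downstream, by Tmem123. The interval without a day 0 peak around Mmp13 was therefore 1.31 Mb long and held 13 protein-coding genes. Of the 25437 intervals between neighbouring day 0 peaks, 287 (1.13%) were at least as long, and the median was 25.2 kb. This is a share of intervals and not of genes. A given position is likelier to fall in a long interval than in a short one, and the share of genes in such intervals was not computed. Of all protein-coding genes, 73.8% had a day 0 peak within 50 kb. The interval holding the Mmp13 start was 208 kb long at day 9 and 332 kb at day 28.

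Mmp13 opens a cluster of 10 Mmp genes on chromosome 9 with no other protein-coding gene among them, and Mmp3, Mmp10 and Mmp8 are in it too. Over 527 kb, from 50 kb before Mmp13 to 50 kb after Mmp7, there was no day 0 peak, while 11 were listed at day 9 and 6 at day 28. The 12 regions came to 2.28 per 100 kb, against 2.49 per 100 kb over the genome. They fell into the upstream group of Mmp13, a single region between Mmp3 and Mmp1a, and a group around Mmp27 and Mmp20. A further single region lay past the end of Mmp7 and was listed at day 9 alone (percentile 9.5). The map of the cluster shows no peak from the Mmp13 start to beyond Mmp3.

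**Figure D1:**
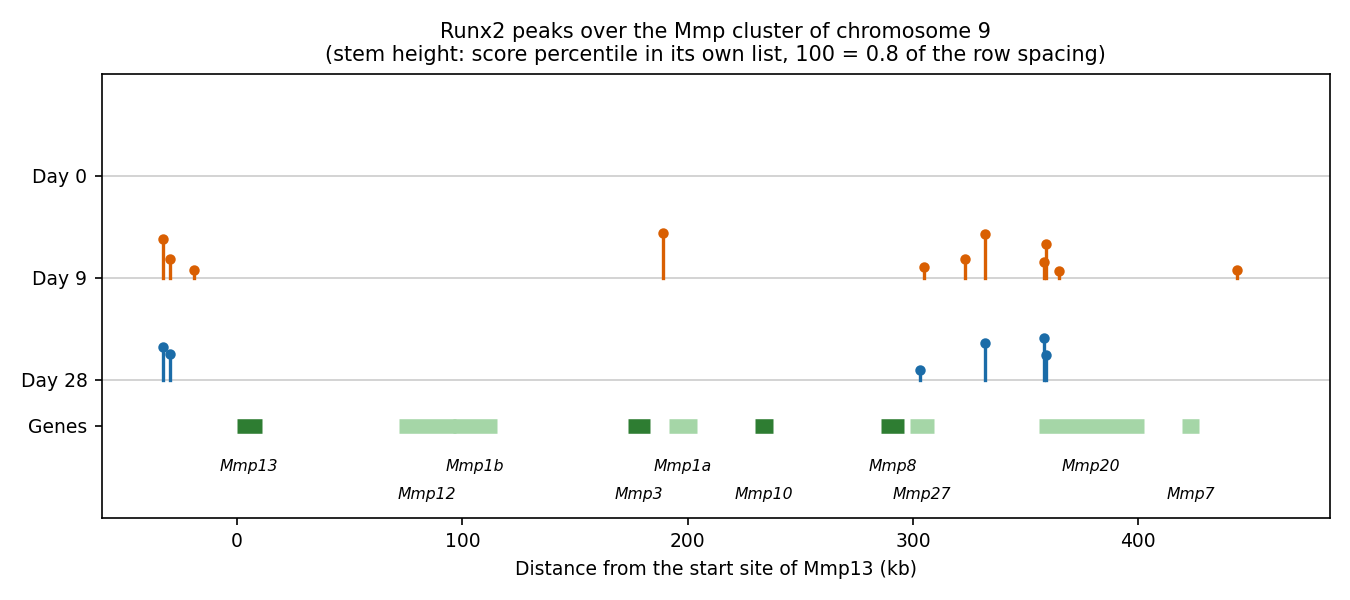
Runx2 peaks over the Mmp cluster of chromosome 9, by distance from the start site of Mmp13 in kb, with 1 row for each day and the height of a stem giving the score percentile within that day's list. Dark green bars are genes described here and light green bars other Mmp genes. The day 0 row is empty, and the 3 day 9 peaks and 2 day 28 peaks at the left lie upstream of Mmp13.

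Mmp8 encodes neutrophil collagenase, the other collagenase among the 10. It had 0, 3 and 2 peaks at days 0, 9 and 28 in 4 regions, all 17.3 to 45.8 kb downstream of its start and each nearer to the start of Mmp27 or Mmp20 than to its own. The strongest, at chr9:7604035-7604461, had a percentile of 53.5 at day 9 and 45.5 at day 28 and held 2 copies of the core. The other 3 were each listed on 1 day, with percentiles of 12.7 to 22.6. As at Mmp13, none was listed at day 0 or lay in the gene or its promoter.

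Mmp3 and Mmp10 encode stromelysins 1 and 2, and their windows shared 1 region and held no other. It lay 15.9 kb after the start of Mmp3, 40.6 kb before that of Mmp10 and 2422 bp from that of Mmp1a, and was listed at day 9 alone with a score of 308 and a percentile of 54.7. Both promoters held an AP-1 site and no core, TGAGTCA at -46 to -40 in Mmp3 and at -73 to -67 in Mmp10, and neither overlapped a peak.

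The third stromelysin gene, Mmp11, is on the minus strand of chromosome 10 at 75385967 to 75400678, outside the cluster. It had 5, 6 and 5 peaks at days 0, 9 and 28. Start sites here are those of the transcript with the longest coding sequence, which for Mmp11 is 75395247. The region over this start, at chr10:75394692-75396007, was listed on all days with percentiles of 30.4, 54.5 and 73.6. Its percentile was thus higher in each later list, but the lists differ in length and its place counted from the top was not compared. Another region, at chr10:75400911-75401317, lay 436 bp from the start of a different Mmp11 transcript and was listed at day 28 alone (percentile 21.3). The top day 9 and day 28 percentiles in this window, 83.1 and 79.7, were at the promoter of Smarcb1, a subunit of the SWI/SNF chromatin remodelling complex. The top percentile at day 0, 90.5, was at a region nearest to the start of Derl3.

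The gelatinase genes carried several regions each. Mmp2 encodes gelatinase A, which mesenchymal cells make widely, and is on the plus strand of chromosome 8 at 95351227 to 95377316. It had 6, 12 and 9 peaks at days 0, 9 and 28, in 13 regions, 6 of them in the gene. The region of highest rank was in intron 5, 8.02 kb after the start, at chr8:95358819-95359680. It scored 267 at day 0, 2029 at day 9 and 1183 at day 28, with percentiles of 49.2, 91.0 and 81.7. This region was therefore near the middle of the day 0 list and near the top of the day 9 list. The 200 bp around its day 9 centre, at chr8:95359122-95359321 on the plus strand, are shown because they hold 2 of the 3 copies of the core in the region, 10 and 62 bp from the centre.
Mmp2, intron 5: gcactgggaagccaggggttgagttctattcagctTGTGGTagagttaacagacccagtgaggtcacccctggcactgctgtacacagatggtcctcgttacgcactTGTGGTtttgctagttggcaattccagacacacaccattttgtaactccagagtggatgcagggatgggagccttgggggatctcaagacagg

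At the start of Mmp2 a region over exon 1, at chr8:95351005-95351768, was absent from the day 0 list and had percentiles of 80.8 at day 9 and 66.6 at day 28. A region on each side of it was listed on all days. The upstream one, 1.16 kb before the start, had percentiles of 37.7, 73.6 and 66.8, and the one in intron 1, 1.19 kb after it, had 39.1, 75.2 and 63.0. These 4 regions at the 5' part of the gene all had a higher percentile in the day 9 list than in the day 28 list. The 3 with a day 0 peak had their lowest percentile there. A percentile is relative to the length of its list, so it does not give a place counted from the top. In the 2 regions of intron 11 the percentile was highest in the day 0 list, which is the shortest. At chr8:95373101-95374755 the percentiles were 87.2, 81.0 and 70.0, while the score was highest at day 9 (825, 1029 and 698). At chr8:95369246-95371840 the percentiles were 70.0, 63.1 and 53.9 and the scores 456, 419 and 378. Both lay nearer to the start of Lpcat2, a phospholipid acyltransferase gene, than to that of Mmp2. A region in intron 12 was listed at day 9 alone (percentile 27.0).

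Mmp9 encodes gelatinase B, best known in bone from osteoclasts, and its main start on the plus strand of chromosome 2 is at 164773719. It had 6, 12 and 7 peaks at days 0, 9 and 28 in 13 regions. The region over the start, at chr2:164773332-164774053, had percentiles of 33.3 at day 9 and 8.3 at day 28 and held 2 cores and 1 AP-1 site. In the gene, a day 9 region over exon 9, 4.23 kb after the start, had a percentile of 46.9, and a day 28 region in intron 11 one of 2.3. None of these was listed at day 0. The region that was nearest to an Mmp9 start and listed on all days was at chr2:164756353-164757625, with percentiles of 52.5, 56.5 and 46.7. It lay 16.7 kb upstream of the main start and 9291 bp from the start of a different Mmp9 transcript. The top percentiles in the window, 95.7, 97.4 and 97.8, were at the promoter of Zfp335, a zinc finger gene 36.8 kb upstream. The Mmp9 start thus carried weak peaks beside much stronger ones of a neighbour.

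Mmp14 encodes the main membrane-type enzyme, which activates the Mmp2 and Mmp13 proenzymes, and is on the plus strand of chromosome 14 at 55050441 to 55060095. It had 6, 18 and 9 peaks at days 0, 9 and 28. Its day 9 count was the highest of the 10 genes and had a percentile of 93.5 among all genes. The count is of the window, in which 5 other protein-coding genes start. Of its 17 regions, 3 were nearest to an Mmp14 start, 4 touched the gene body and 4 lay on promoters of other genes alone. The region of highest rank was in intron 1, 1.85 kb after the start, at chr14:55051632-55052952. It scored 1792 at day 0, 3100 at day 9 and 1980 at day 28, with percentiles of 96.9, 97.4 and 90.7. The score of 3100 was shared by 2699 day 9 peaks, which have no order among themselves. This intron 1 region was therefore near the top of every list. The 200 bp around its day 9 centre, at chr14:55052370-55052569 on the plus strand, hold 2 cores, 60 and 81 bp from the centre.
Mmp14, intron 1: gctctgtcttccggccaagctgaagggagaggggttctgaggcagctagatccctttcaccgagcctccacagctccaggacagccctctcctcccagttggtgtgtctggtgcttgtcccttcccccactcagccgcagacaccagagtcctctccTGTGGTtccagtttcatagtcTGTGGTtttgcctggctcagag

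The region over the Mmp14 start and exon 1, at chr14:55049989-55051514, was absent from the day 0 list and had percentiles of 69.6 at day 9 and 59.3 at day 28. The Mmp14 promoter held a core at -120 to -115, written as ACCACA. A region 965 bp before the start was listed at day 9 alone (percentile 15.0), as were regions in intron 1, 3.95 kb after the start, and over exon 10, with percentiles of 34.1 and 23.0. Past the 3' end of the gene, a region 12.1 kb after the start, at chr14:55061598-55063415, had percentiles of 32.7, 88.5 and 90.2 and was nearest to the start of Gm11067. Its rank in the day 0 list was thus far below that in the later lists.

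Mmp16 and Mmp23 complete the group. Mmp16 encodes another membrane-type enzyme and is the longest of the 10 genes, at 266 kb on chromosome 4. It had 2, 1 and 1 peaks at days 0, 9 and 28, although its window was the widest, at 366 kb. The region over its start, at chr4:17778963-17781523, scored 766, 958 and 2185 with percentiles of 85.5, 79.8 and 92.0. It was thus of high rank in all lists. The remaining region, 41.2 kb into the gene in intron 1, was listed at day 0 alone, with a percentile of 3.1. Mmp23 encodes a short member that is anchored in the membrane in its precursor form. It had 3, 5 and 5 peaks at days 0, 9 and 28, but a single region in intron 4, listed at day 9 (percentile 31.9), was its own. Of the other 5, 4 covered promoters of Slc35e2, Cdk11b, Mib2 and B930041F14Rik. At days 9 and 28 the strongest were those of Slc35e2, with percentiles of 85.2 and 85.6, and of B930041F14Rik, with 79.8 and 85.6. At day 0 the Slc35e2 region was the weakest of the 3 listed (percentile 10.1), and the strongest was that of Cdk11b (45.7).

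**Figure D2:**
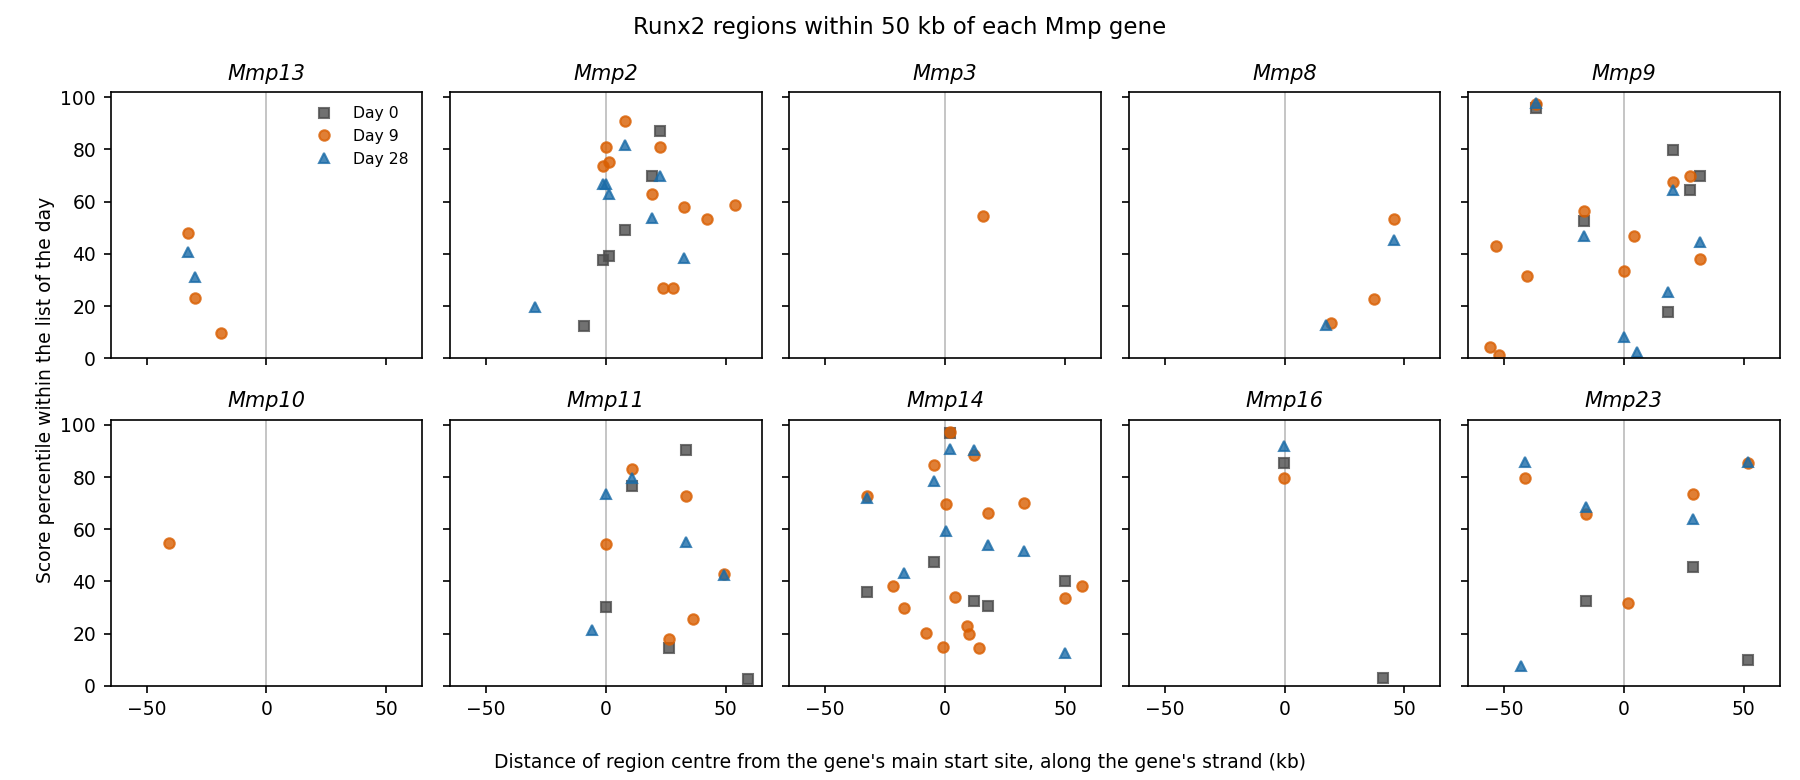
Regions within 50 kb of each Mmp gene, by the distance in kb from the start site of its main transcript along the gene's strand and by the percentile of the highest score in the region within that day's list (squares, day 0; circles, day 9; triangles, day 28). All 3 regions of Mmp13 lie left of its start, while Mmp2, Mmp14 and Mmp16 have regions at or just after theirs with percentiles of 79.8 or more at day 9.

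By number of peaks, the 10 genes did not stand together. Genes had 2.87 ± 3.4, 6.55 ± 8.0 and 4.34 ± 5.2 peaks at days 0, 9 and 28 (mean ± SD over 22380 genes), with medians of 2, 5 and 3. The medians of the 10 Mmp genes were 2.5, 4 and 3.5. Mmp13, with 0, 3 and 2 peaks, was at percentiles of 13.1, 37.5 and 37.7 among all genes, and thus in the lower part of each distribution. Mmp2, with 6, 12 and 9, was at 86.2, 82.7 and 86.1. Of these 10 genes, every one outside the cluster had a day 0 peak, and none in it did.

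**Figure D3:**
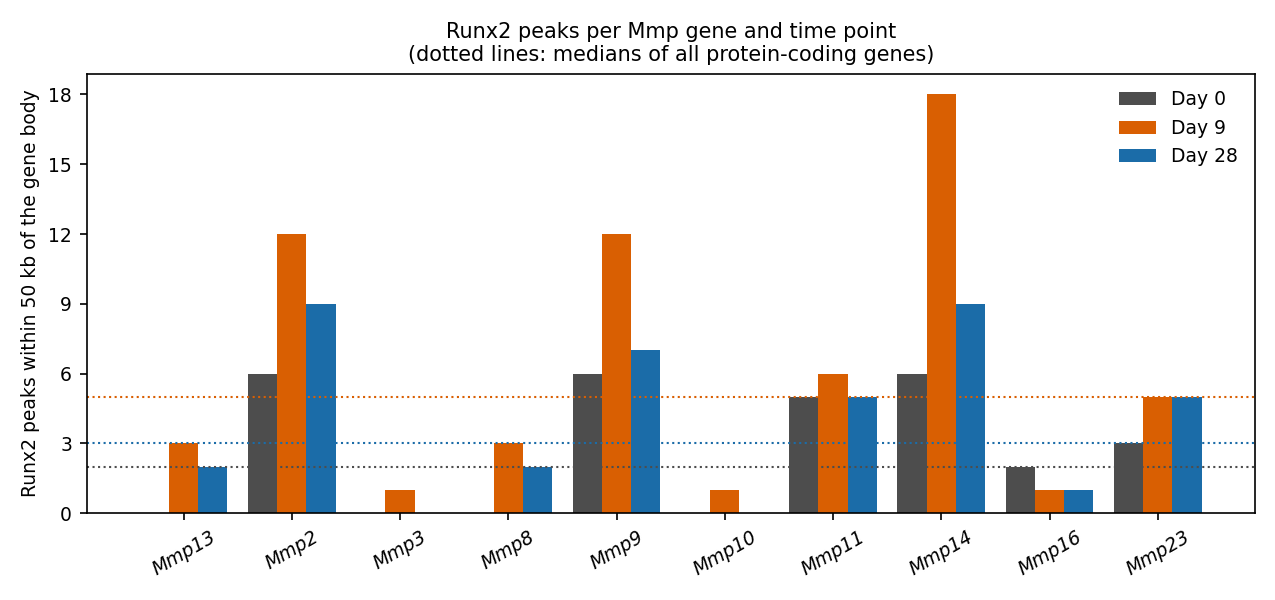
Number of Runx2 peaks within 50 kb of the body of each Mmp gene (vertical axis) at days 0, 9 and 28, from 1 pooled list a day. Dotted lines mark the medians of all protein-coding genes, 2, 5 and 3 peaks. Mmp14 reaches 18 peaks at day 9, while Mmp13, Mmp3, Mmp8 and Mmp10 have no day 0 bar.

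A day 0 peak was present for 6 of the 10 genes, against 73.8% of all protein-coding genes. A day 9 peak was present for 10 of 10, against 83.2%, and a day 28 peak for 8 of 10, against 78.3%. Of the 10, 9 had more peaks at day 9 than at day 0, against 71.9% of all genes, and 8 had fewer at day 28 than at day 9, against 62.8%. The exception to the first was Mmp16, in the 4.01% of genes with more peaks at day 0 than at day 9. No peak at day 0 and at least 1 at day 9 was the pattern of 4 of the 10, Mmp13, Mmp3, Mmp8 and Mmp10, against 10.4% of all genes. These 4 lie in 1 cluster and Mmp3 and Mmp10 share their only region, so they are not 4 independent cases. The lists differ in length, and with only the 25457 best peaks of each the Mmp windows held 28, 26 and 31 at days 0, 9 and 28. The higher number at day 9 was thus not seen in lists of equal length.

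Of the 67 regions, 22 (32.8%, exact 95% interval 21.8 to 45.4%) had a peak on all days, against 27.4% of all regions. Day 9 alone had 23 (34.3%, 23.2 to 46.9%), against 34.5%, and days 9 and 28 without day 0 had 11 (16.4%, 8.49 to 27.5%), against 21.1%. The intervals cover counting error only, and each held the share of all regions. The regions 29.6 and 32.9 kb upstream of Mmp13 belonged to the last of these patterns, as did those over the starts of Mmp2, Mmp9 and Mmp14. On a promoter, from 1 kb before to 150 bp after a start, lay 20 regions (29.9%, 19.3 to 42.3%), against 18.0% of all regions. Of these 20, 8 were on a promoter of one of the 10 Mmp genes and 12 on that of another gene alone. Each window was drawn around a gene and so holds at least 1 start site, and the share over windows of other genes was not computed.

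The share of these peaks with a Runx core at the centre was close to that of the lists as wholes. A copy was counted only if all of its bases lay within 50 bp of the centre, whereas distances given above run to a base inside the motif. The copy 50 bp from the centre in the Mmp13 region 32.9 kb upstream was therefore not counted. Within 50 bp of the centre the core was found in 16 of 61 day 9 peaks (26.2%, 15.8 to 39.1%), against 25.3% of all day 9 peaks. At day 0 it was found in 5 of 28 (17.9%, 6.06 to 36.9%), against 16.0%, and at day 28 in 7 of 40 (17.5%, 7.34 to 32.8%), against 20.9%. In windows of the same width 500 bp to either side the day 9 share was 8.20%, against 7.32%. Off promoters the core was in 15 of 43 day 9 peaks (34.9%, 21.0 to 50.9%), and on promoters in 1 of 18 (5.56%, 0.141 to 27.3%). Peaks of the whole list differed in the same way, at 30.2% and 6.19%. The AP-1 site was at the centre of 1 of 61 day 9 peaks (1.64%, 0.0415 to 8.80%), that at the start of Mmp9, against 3.69% of all.

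**Figure D4:**
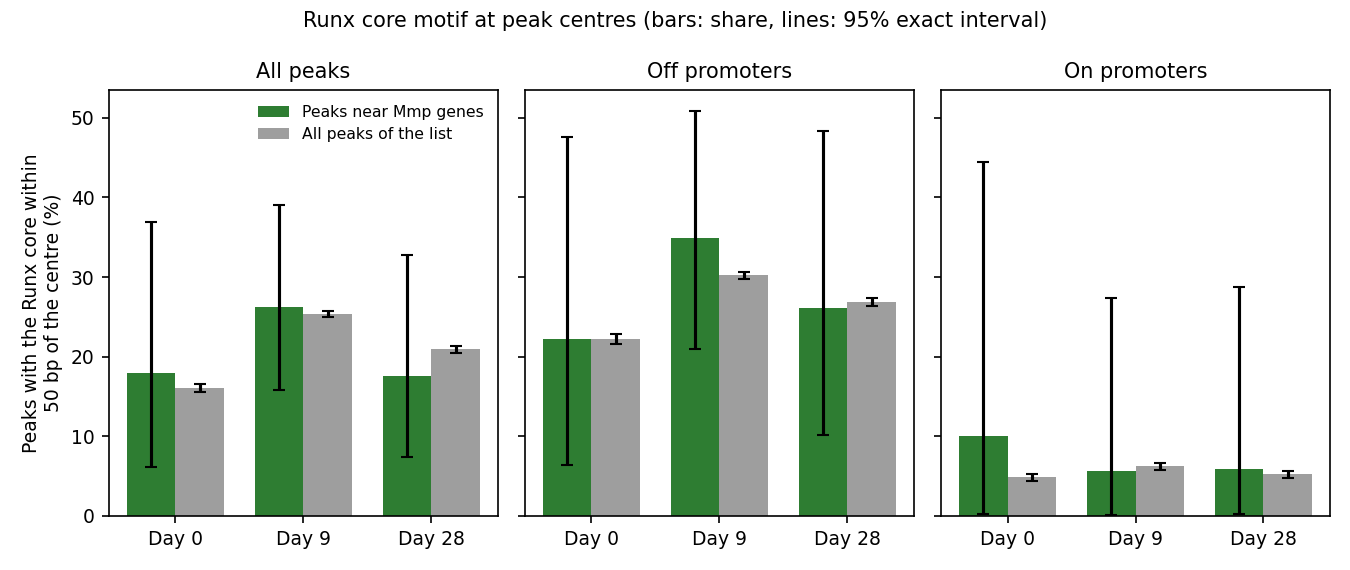
Share of peaks with TGTGGT on either strand within 50 bp of the peak centre, in percent, for peaks near the 10 Mmp genes (green) and for all peaks of the same list (grey), with exact 95% intervals for counting error. The shares near Mmp genes have wide intervals that hold the share of all peaks on each day, and both are higher off promoters than on them.

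Among the 13 other Mmp genes of the annotation, 6, 11 and 9 had a peak within 50 kb at days 0, 9 and 28, and 10 had more at day 9 than at day 0 while 3 had equal numbers. Over all genes, 73.8%, 83.2% and 78.3% had a peak on these days and 71.9% had more at day 9 than at day 0. Mmp1a, Mmp1b, Mmp7, Mmp12, Mmp20 and Mmp27 lie in the chromosome 9 cluster. Some windows there share peaks, so the 13 are not independent cases. Mmp12, the macrophage elastase, and Mmp1b had no peak on any day. Of the inhibitors of these enzymes, the genes of the 4 tissue inhibitors Timp1 to Timp4 and of the membrane-anchored inhibitor Reck, all 5 had peaks on every day and more at day 9 than at day 0, with medians of 3, 11 and 8. Timp2 had 10, 31 and 16 peaks, and its day 9 count was at percentile 99.3 of all genes.

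The number of peaks and the highest percentile on each day were also used to find the genes most like Mmp13, leaving out those within 1 Mb of it. Of 43 genes with the same counts of 0, 3 and 2, the closest were Gm10076, Tcfap2c and Hpcal4. Their highest percentiles were 49.6, 50.6 and 51.2 at day 9 and 41.2, 38.8 and 36.8 at day 28, against 47.9 and 40.8 for Mmp13. The likeness is over 3 lists and 2 measures alone.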

How the data were processed

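Runx2 ChIP-Seq libraries of MC3T3-E1 cells at days 0, 9 and 28 were base-called with CASAVA 1.6. The authors mapped reads to mm9 with Bowtie 0.12.8, pooled the 2 replicates of each day, called peaks with MACS 1.4.1 against input DNA and retained those with p under 1e-10. The score column of the deposited lists is, per the authors, the MACS p-value as a negative log10, multiplied by 10. The lists hold no read counts, so the depth behind a peak could not be computed from them. The study's read totals, which were largest for day 0, were not used here. Input DNA served only in peak calling. Sequences of other regions than those printed are not reported here.

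Peaks were matched to GENCODE M1 genes on the same assembly, with windows of 50 kb. Peaks sharing 1 bp or more were merged. TGTGGT and TGANTCA were searched on both strands. Regions were described singly for Mmp13, and elsewhere if of highest percentile, on the gene's own promoter or in its body. A neighbour was named where its start was nearest to such a region. The members, lists and rules were chosen with earlier results of these data known. No test was made between days. Alternatives covered the p-value threshold, the window, list length, joining of peaks, overlap and the motif. The work was done in Python 3.11.15 with SciPy 1.17.1 for intervals, NumPy 2.4.6 for arrays and Matplotlib 3.10.9 for plots. On simulated data, with regions far apart and at most 1 peak of a day in each, 700 of 700 regions were recovered. This checks the code in that simple setting only.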

Additional observations from a re-analysis of the deposited data

How the results depend on the processing

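Of 47 values recomputed under alternatives, 19 moved by less than the limit set for them, which was 1.5 times for counts and the 95% interval for the motif share, and 28 moved by more. At p-values of 1e-20 or less, the Mmp windows held 18 peaks at day 0 and 36 at day 9, in 37 regions. At 1e-50 or less they held 7, 22 and 18 peaks at days 0, 9 and 28, in 22 regions. With 20 kb on each side there were 39 peaks at day 9 and 25 at day 28 in 42 regions, 5 of them with a peak at days 9 and 28 only. With lists of equal length, day 9 had 26 peaks, the 3 lists together 38 regions, and 4 regions had a peak at days 9 and 28 only. Day 9 had the most peaks in 4 of 5 alternatives, and day 0 the fewest in 4 of 5. Mmp13 had 1 region, upstream, at 1e-20, within 20 kb and with lists of equal length, and 0 at 1e-50. Its day 9 peaks numbered 1 at 1e-20 and within 20 kb, and 0 at 1e-50 and with lists of equal length. The share of day 9 peaks with the core was 39.3% within 100 bp of the centre (37.4% of all peaks) and 63.9% over the whole peak (58.7% of all). With C also allowed in the core, as TGYGGT, the share was 27.9% (28.5% of all). At p-values of 1e-20 or less it was 16.7% (23.4% of all). No paired analysis was possible because each day has a single pooled list. Absence from a list means only a score under 100.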

Other observations

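In 4 of the 67 regions near Mmp genes (5.97%), and in 4.94% of all regions, TGTGGT was found 5 or more times. The region 56.9 kb after the start of Mmp14 held 10 copies at a constant spacing of 5 bp, which is a tandem repeat of TGTGG, and was listed at day 9 alone (percentile 38.1). The region 53.9 kb after the start of Mmp2 held 8 copies, 20 to 89 bp apart, and was also listed at day 9 alone (percentile 58.6). The region 16.7 kb upstream of Mmp9 held 9 copies, 13 to 327 bp apart, and was listed on all days. The region over the start of Mmp16 held 5 copies in 2561 bp. These regions were singled out after their values were seen.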
